A study of Mus musculus with 7 samples.

Results

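Binding of the retinoic acid receptors RARα and RARβ and of the retinoid X receptor RXRα was described at 9 core genes of the circadian clock in mouse liver: Clock, Arntl (also called Bmal1), Per1, Per2, Cry1, Cry2, Nr1d1, Nr1d2 and Dbp. For each gene, every peak was taken whose midpoint lay in the gene span or within 50 kb of it. This gave 387 of the 245004 peaks in 6 lists, and the 9 genes are 9 of 21532 protein-coding genes with a known strand. Livers came from male wild type C57BL/6 mice aged 3 months, fed a normal diet (control) or a diet containing retinoic acid (RA), for 1 day by the labels. The methods of the study give a longer RA treatment, so its duration is not settled, and the time of day of liver collection, on which clock gene activity depends, is given in neither. Chromatin was precipitated with an antibody against 1 of the 3 receptors and sequenced as single-end reads of 35 bp, with 1 library per receptor and diet. The difference between any 2 lists therefore has no replicate check, no test was possible, and each value below describes these libraries only.

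The clock is a loop of transcription. CLOCK and ARNTL (BMAL1) pair and bind E-boxes in their target genes, among them the Per and Cry genes, whose proteins then repress the pair. REV-ERBα and REV-ERBβ, nuclear receptors encoded by Nr1d1 and Nr1d2, close a further loop by repressing Arntl through ROR elements, and DBP carries the rhythm to output genes through D-boxes. RARs are nuclear receptors that are activated by RA and bind DNA as partners of RXRs, which also pair with other nuclear receptors of the liver.

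The RefSeq table (GRCm38.p6) had promoter windows for 8 of the clock genes. Each window runs from 250 bases before a start to 50 bases after it, and Per2 had no entry. Of the 12 windows of these genes, 4 are shown 5′ to 3′ on the strand of the gene. They carry known clock elements or the AGGTCA core that nuclear receptors bind, and peaks of the 3 receptors lay over them. A Clock window with AGGTCA, overlapped in 4 lists, and the other Arntl window also met this and are not shown. Capitals mark matches on either strand to the E-box CACGTG, the D-box TTATGNAA, the ROR element (AANT followed directly by AGGTNA) and the core AGGTCA, and an AGGTCA can lie inside a ROR element.
Arntl promoter, chr7:113207261-113207560, plus strand: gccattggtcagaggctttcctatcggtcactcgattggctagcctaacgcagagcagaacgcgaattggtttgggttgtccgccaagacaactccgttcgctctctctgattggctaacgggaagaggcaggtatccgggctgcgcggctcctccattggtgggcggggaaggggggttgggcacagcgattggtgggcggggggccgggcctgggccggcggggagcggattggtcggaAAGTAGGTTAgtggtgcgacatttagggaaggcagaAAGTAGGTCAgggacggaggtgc
Nr1d2 promoter, chr14:18239057-18239356, minus strand: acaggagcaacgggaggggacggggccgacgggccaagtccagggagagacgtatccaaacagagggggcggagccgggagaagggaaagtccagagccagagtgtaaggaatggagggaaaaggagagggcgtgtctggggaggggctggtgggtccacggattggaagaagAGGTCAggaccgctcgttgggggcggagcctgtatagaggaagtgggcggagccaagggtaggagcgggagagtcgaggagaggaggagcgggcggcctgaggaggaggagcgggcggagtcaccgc
Per1 promoter, chr11:69098699-69098998, plus strand: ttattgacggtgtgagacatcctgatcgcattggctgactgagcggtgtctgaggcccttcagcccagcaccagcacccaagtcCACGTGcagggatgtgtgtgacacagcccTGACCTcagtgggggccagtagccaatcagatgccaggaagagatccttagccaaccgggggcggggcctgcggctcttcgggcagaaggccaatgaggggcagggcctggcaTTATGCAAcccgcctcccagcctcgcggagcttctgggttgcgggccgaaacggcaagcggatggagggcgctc
Cry1 promoter, chr10:85185005-85185304, minus strand: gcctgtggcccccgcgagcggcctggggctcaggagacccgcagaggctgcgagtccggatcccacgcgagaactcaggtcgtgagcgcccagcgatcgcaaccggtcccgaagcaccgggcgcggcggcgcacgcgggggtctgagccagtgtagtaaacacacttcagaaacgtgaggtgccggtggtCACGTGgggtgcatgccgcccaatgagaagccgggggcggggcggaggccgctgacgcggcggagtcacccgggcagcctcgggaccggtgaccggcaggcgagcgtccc
Counted with the start base as 0, the Arntl window held ROR elements beginning at -9 and 27. The ROR element was found in 0.682% of 32851 promoter windows, and among the clock genes only in the 2 overlapping windows of Arntl. The E-box lay at -60 in Cry1 and at -166 in Per1, and 7.15% of all windows held it. The D-box was found at -24 in Per1, against 3.38% of all windows. AGGTCA was in 4 of the 12 clock gene windows (in Clock, Arntl, Per1 and Nr1d2), against 16.3% of all windows. The other core form, AGTTCA, was in 0 of the 12 windows and in 14.0% of all windows. Direct repeats of AGNTCA spaced by 1, 2, 4 or 5 bases were also in 0 of the 12, and in 0.219%, 0.107%, 0.125% and 0.204% of all windows. These spacings are among those known for RXR pairs, and other spacings were not searched. These matches are of letters only, and a missing match says nothing of the receptors, since peaks are wider than the windows.

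Each of the 9 clock genes had a peak in its 50 kb window in each of the 6 lists, where 83.6% (RARα), 70.2% (RARβ) and 83.7% (RXRα) of all genes did on the control diet, and on RA 84.8%, 77.8% and 84.3%. For all 6 lists together this was 67.2% of genes. The windows held 58 RARα peaks on the control diet and 65 on RA. For RARβ they held 43 and 52 peaks, and for RXRα 85 and 84. As a share of the list this was 0.163% and 0.147% for RARα, 0.287% and 0.176% for RARβ, and 0.139% and 0.141% for RXRα, so the clock genes took their largest share from the RARβ control list. That list was also the shortest, with 14968 peaks, against 29467 for RARβ under RA, 35521 and 44296 for RARα, and 61128 and 59624 for RXRα. Read totals are not in the lists, so the depth behind them is unknown. Beside the 50 kb limit, the last peak inside was an RARα peak under RA at 49.8 kb from Nr1d1 (score 118.12), and the nearest outside was an RARα peak under RA at 50.9 kb from Cry1 (score 61.01).

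**Figure D1:**
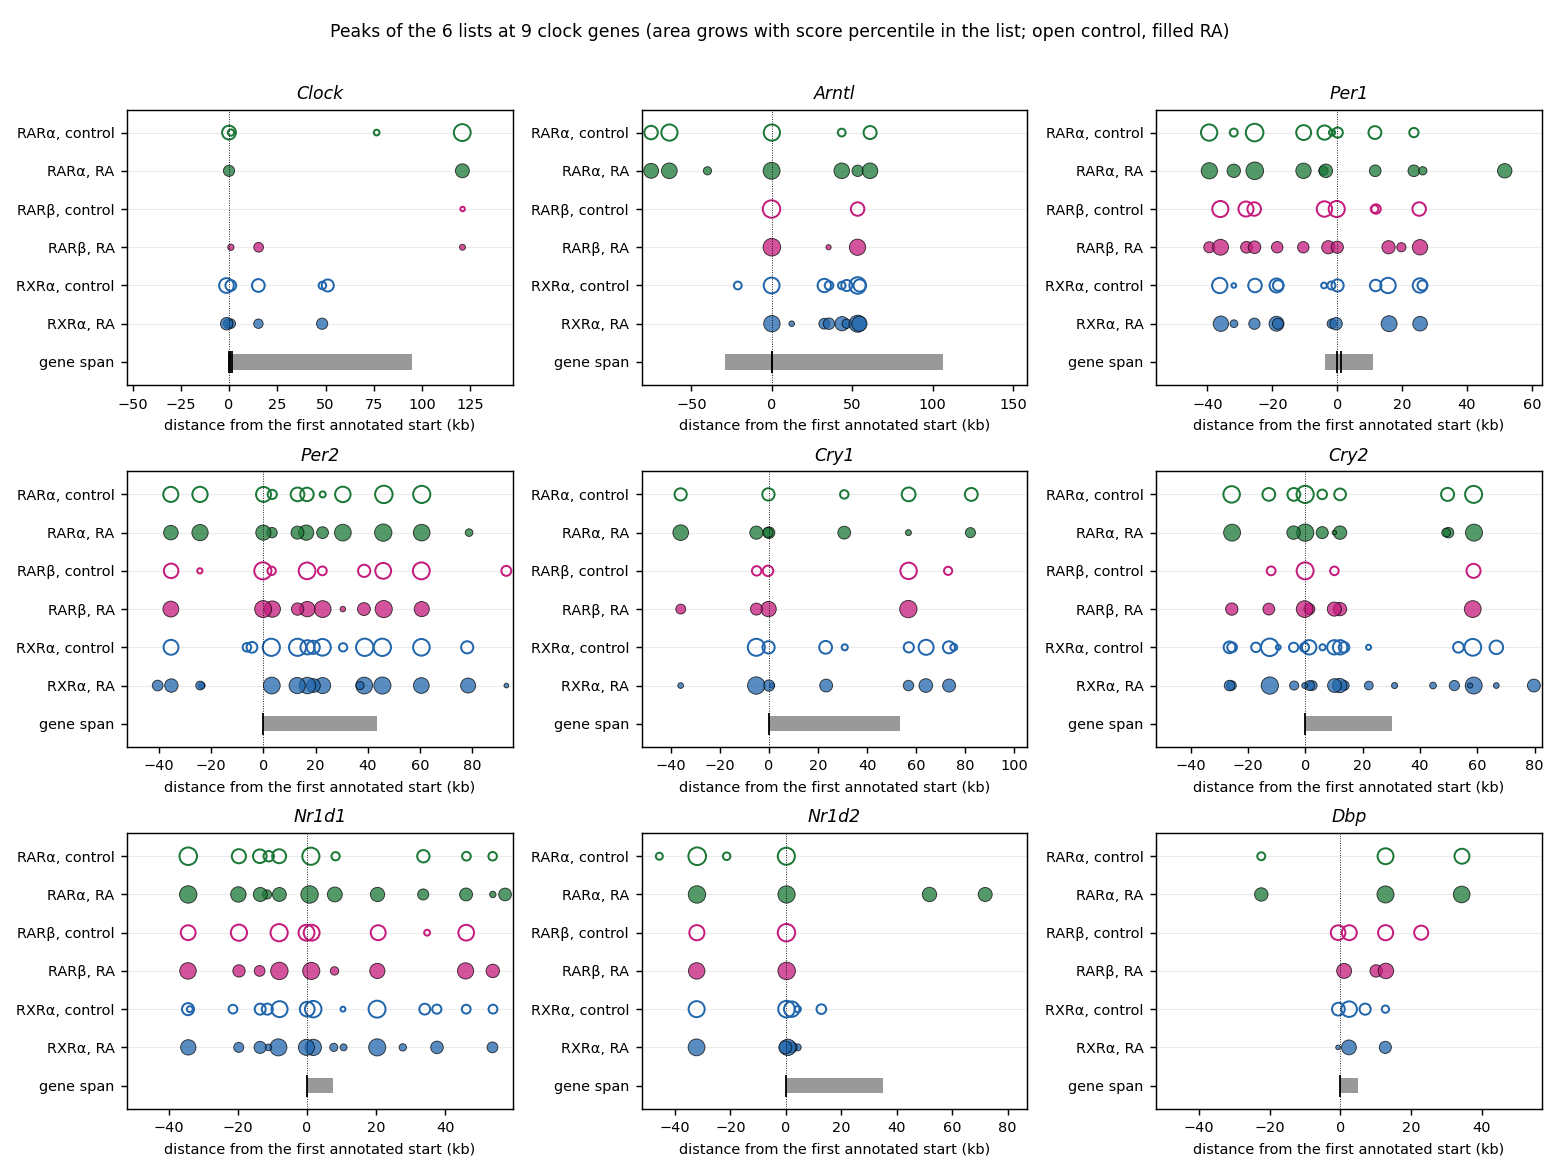
Peaks at the 9 clock genes, with distance from the most upstream annotated start in kb on the horizontal axis (for Per2 the 5′ end of its span) and 1 row per list. Each circle is a peak, open for control and filled for RA, with an area that grows with its score percentile, grey bars are gene spans and black ticks are starts. Peaks sit at the starts of Arntl and Nr1d2 in every list, and Per2, Cry2 and Nr1d1 carry many peaks on both sides of their starts.

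Genes with a peak midpoint no more than 10 kb from a start are called bound here. By this rule, 8 of the 9 clock genes were bound by RARα under each diet (62.3% of all genes under control and 63.7% under RA). RARβ bound 8 under control and 9 under RA (44.5% and 55.2%), and RXRα bound 9 under each (61.8% and 62.3%). In all 6 lists, 7 genes were bound, namely Arntl, Per1, Per2, Cry1, Cry2, Nr1d1 and Nr1d2, against 38.8% of all genes. The 2 exceptions were Clock, which had no RARβ peak within 10 kb under the control diet, and Dbp, which had no RARα peak there under either diet. A gain of RARβ under RA such as that at Clock was seen at 13.1% of all genes. With each list limited to its 14968 highest peaks, the length of the shortest list, the counts were 7 and 5 for RARα, 8 and 8 for RARβ and 6 and 5 for RXRα. Of all genes, 47.5% and 43.7%, 44.5% and 41.2%, and 21.1% and 22.0% were then bound. Within 1 kb, RARα was at 7 clock genes under each diet (49.1% of all genes under each). RARβ was at 8 and 7 (35.2% and 42.9%) and RXRα at 8 under each (42.5% and 44.4%). Arntl, Cry1, Cry2 and Nr1d2 had a midpoint within 1 kb in all 6 lists, as did 26.5% of all genes.

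The strength of a peak is given as its score percentile, the share of peaks in the same list with the same or a lower score, so that 100 is the highest peak of a list. The score is the caller's own and was not normalised between libraries. A percentile also depends on the length of the list, so it can be higher under RA where the rank is not. At the Nr1d2 start, RARβ had percentile 96.7 at rank 493 under control and 98.0 at rank 583 under RA. For the best peak within 10 kb, the median over the bound clock genes was 76.5 (control) and 81.2 (RA) for RARα, against 79.3 and 79.0 over all bound genes. It was 92.2 and 88.6 for RARβ, against 68.6 and 71.6. For RXRα it was 78.6 and 84.6, against 63.7 and 65.0. The RARβ and RXRα medians of the clock genes were thus above those of all bound genes under both diets, whereas the RARα medians lay within 3 points of them.

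**Figure D2:**
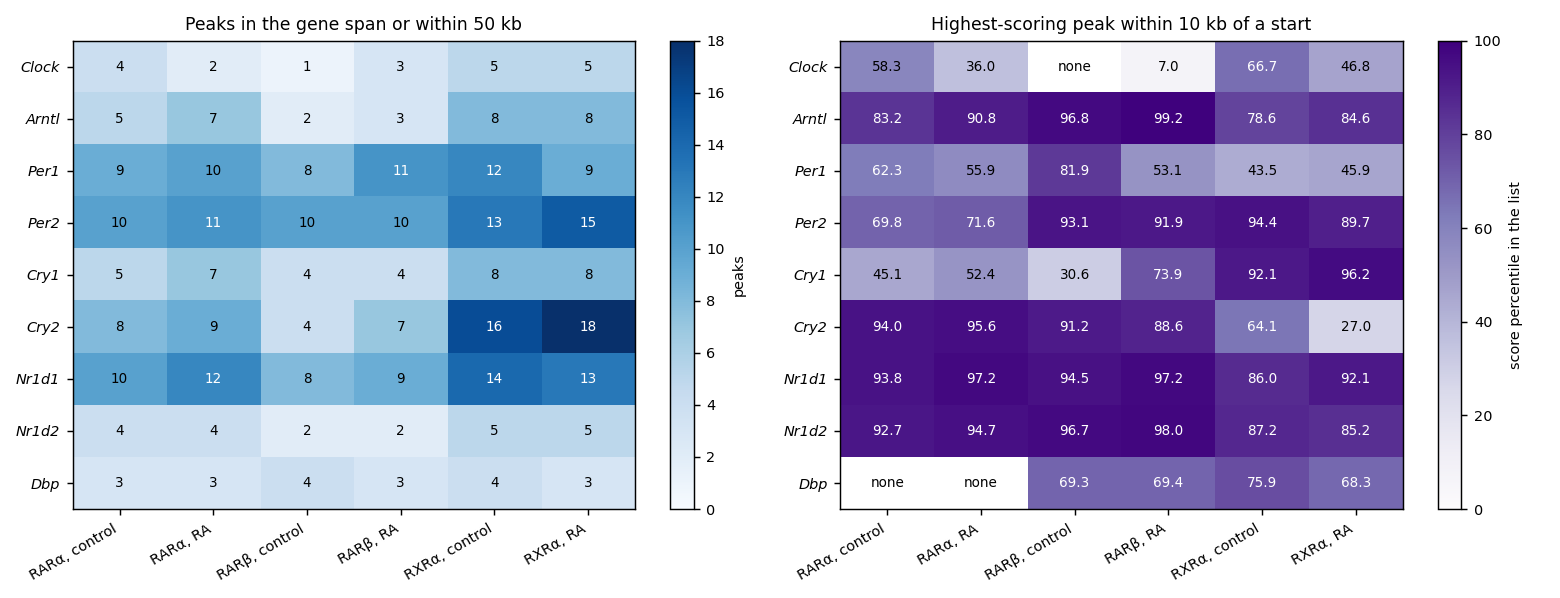
Peak counts in the 50 kb windows (left) and score percentile of the best peak within 10 kb of a start (right), with clock genes in rows and the 6 lists in columns. Counts run from 1 (Clock, RARβ control) to 18 (Cry2, RXRα RA), and the percentile of Arntl, Nr1d1 and Nr1d2 is at least 78.6 in every list.

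Among the activators, Clock was bound weakly by the RARs. For RXRα it was above the median of all bound genes (63.7) under control and below it (65.0) under RA. Its best peak within 10 kb had percentiles of 58.3 and 36.0 for RARα under control and RA and of 66.7 and 46.8 for RXRα. For RARβ it was none under control and 7.04 under RA, with a score of 54.27, close to the lowest score of 50 in that list. Clock was therefore low for both RARs, and its 2 pairs of values were lower under RA. Its RARα peak lay over the start (chr5:76304428-76305519), whereas its higher RXRα peak lay 1.34 kb upstream (chr5:76305596-76306675), where no RAR peak was called. A further region 0.388 kb upstream of a start (chr5:76303474-76304306) had RARα under control (6.97), RARβ under RA (7.04) and RXRα under both diets (33.1 and 24.7). The highest RARβ peak under RA was in the gene at 14.0 kb (25.5). The highest RARα peak of the Clock window, with percentiles of 90.2 and 59.5, was 119.5 kb downstream at the start of Tmem165, as was the only RARβ peak of the control list (0.194).

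Arntl, the partner of CLOCK, had 1 region within 10 kb, and it lay over the start in all 6 lists (chr7:113206749-113208126). The RARα score was 266.50 under control and 367.53 under RA, at percentiles of 83.2 and 90.8. For RARβ the scores were 307.93 and 595.81, at percentiles of 96.8 and 99.2, and the latter peak ranked 229 of the list. For RXRα they were 313.46 and 399.97, at percentiles of 78.6 and 84.6. All 3 receptors were thus at the same position, and each had its higher percentile under RA. The window with both ROR elements printed above was overlapped by a peak of each list, and covered whole in 5 lists. The RARβ control peak ended at position 113207523, before the second ROR element.

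Arntl had no start of another protein-coding gene in its window, so its 33 peaks could be assigned to no other gene by distance. A pair of further regions in its gene span was chosen after their values were seen. At 53.3 kb from the start (chr7:113260289-113261235), RXRα had percentiles of 86.4 and 93.0, RARβ had 55.1 and 83.5, and RARα was called only under RA (37.4). At 43.5 kb (chr7:113250621-113251468), RARα had percentiles of 14.0 under control and 76.3 under RA, and RXRα 12.5 and 62.4, with no RARβ peak. A rise of that size was seen in 0.525% of the 29701 RARα regions called under both diets, and in 0.745% of the 46708 such RXRα regions. Falls of comparable rarity also occurred among the clock gene windows, at the Mterf2 start in the Cry1 window for RARα and near Large2 in the Cry2 window for RXRα. The former went from 58.1 to 5.51, a fall reached by 0.421% of RARα regions, and the latter from 55.9 to 4.51, reached by 1.01% of RXRα regions.

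Per1, a repressor that is also induced acutely by hormones and light, had a single region within 10 kb of its starts, 5453 bp wide (chr11:69094299-69099751) and called in all 6 lists. Percentiles there were 62.3 and 55.9 for RARα, 81.9 and 53.1 for RARβ, and 43.5 and 45.9 for RXRα. They were between 43.5 and 62.3 in 5 lists and highest in the RARβ control list. The best RARα peaks lay 3.90 and 3.51 kb upstream of the first annotated start, and the best RARβ peak under RA 2.74 kb upstream. That start lies 3841 bp inside the gene span. From the 5′ end of the span, the RARα peaks were at -59 and 332 bp and the RARβ peak at 1105 bp. The printed window, with the E-box and D-box, was overlapped by a peak in 5 lists and not in RARα under RA. The promoter window of the second Per1 start was overlapped in 0 lists. The highest peak in the Per1 window was an RARα peak 25.5 kb upstream (chr11:69072818-69074156), at 98.7 under control and 99.7 under RA, ranks 450 and 117. It was nearest to the start of Tmem107. The highest RARβ peak under RA, 36.0 kb upstream (79.1), was nearest to Borcs6, and the highest RXRα peaks, 14.5 and 14.8 kb downstream (73.8 and 79.7), were nearest to Hes7. The starts of 7 other protein-coding genes lay in the window.

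Per2, the second Period repressor, had its highest RAR peaks and its highest RXRα peaks within 10 kb at different positions. At its start (chr1:91458354-91460102), RARα had percentiles of 69.8 and 71.6, and RARβ 93.1 and 91.9. RXRα had no midpoint within 1 kb of this start under either diet. The highest RXRα peak within 10 kb was 3.26 kb into the gene (chr1:91455145-91457030), at 94.4 and 89.7. At that second position RARα was low, at 22.1 and 30.1. RARβ had a score of 55.69 under control (percentile 17.3) and 192.95 under RA (84.4). A pair of weak RXRα peaks of the control diet, 4.30 and 6.23 kb upstream (percentiles of 32.7 and 18.3), completed the regions within 10 kb.

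Per2 also had the most regions called in all 6 lists, 6 of 19 over the 9 genes. A region in its span at 22.7 kb from the start (chr1:91436134-91437209) was slightly closer to the start of Hes6, at 22633 bp. The RARβ score there was 56.74 under control and 224.29 under RA, at percentiles of 19.9 and 89.2. RARα was at 5.93 and 40.4, and RXRα at 88.1 and 81.1. Both RARs thus had a higher percentile under RA at a region where RXRα was high under both diets. Of 11446 RARβ regions called under both diets, 3.15% rose by at least as much as this region and 3.70% by at least as much as the region at 3.26 kb. Among the 33 such regions of the clock gene windows, these were the largest rises. The largest RARβ fall, near Msl1 in the Nr1d1 window, went from 82.6 to 45.2 and was reached by 4.50% of regions. Nearer to Hes6, at 46.0 kb, lay the highest RARα peaks of the window (97.2 and 95.3) and the highest RARβ and RXRα peaks under RA (93.6 and 93.0), and the highest RXRα peak under control was at 38.8 kb (95.9).

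Cry1, a cryptochrome repressor, was bound at its start (chr10:85184793-85185809) in all 6 lists at moderate levels. Percentiles were 45.1 and 39.4 for RARα, 30.6 and 73.9 for RARβ, and 44.8 and 36.8 for RXRα. Its strong peak was of RXRα, 5.23 kb upstream (chr10:85189734-85190826), with scores of 544.50 and 759.97 and percentiles of 92.1 and 96.2. RARβ was at 23.5 and 42.5 at this region, and RARα was called only under RA, at 52.4. All 3 receptors had their higher value there under RA. The highest RARβ peaks of the window (85.7 and 96.0) and the highest RARα peak under control (58.1) lay at the Mterf2 start, and the highest RARα peak under RA lay 36.1 kb upstream of Cry1 (77.0). A weak RXRα peak 1.27 kb downstream was called only under RA (2.10).

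Cry2, the other cryptochrome, had high RAR and low RXRα percentiles at its start (chr2:92433523-92434816). RARα was at 94.0 and 95.6 and RARβ at 91.2 and 88.6, whereas RXRα was at 21.2 and 4.63. Higher RXRα values lay 1.46 kb downstream, at 64.1 and 27.0, and 12.3 kb upstream (chr2:92445614-92447215), at 97.7 and 95.02. The latter lay beyond the limit of 10 kb but had Cry2 as its nearest start. RARs were lower at this upstream region, with RARα at 48.8 under control and none under RA, and RARβ at 19.8 and 41.0. The remaining regions within 10 kb, at 5.94, 2.46, -3.87 and -9.42 kb, had percentiles between 1.21 and 54.5. Near Pex16, 58.4 kb downstream, lay the highest RARβ peak under RA (89.7).

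Nr1d1, which encodes REV-ERBα, carried 2 regions in all 6 lists within 10 kb. The first covered the start and the first kilobases of the gene (chr11:98772139-98776182). RARα was at 93.8 and 97.2 there, RARβ at 79.7 and 93.4, and RXRα at 86.0 and 83.6. These RXRα peaks lay 1.79 and 1.82 kb downstream, and those at the start itself were at 67.8 and 81.0. The second was 8.12 kb upstream (chr11:98782687-98784312), with RARα at 59.5 and 59.0, RARβ at 94.5 and 97.2, and RXRα at 80.4 and 92.1. RARα was thus higher at the start and RARβ higher upstream. The highest RARα peak under control (97.8) was at the start of Casc3, 34.4 kb upstream, and the highest RXRα peaks (91.2 and 93.2) lay 20.2 and 20.3 kb downstream, nearest to Thra. A further region, 8.21 kb downstream of the start and at the 3′ end of this short gene, had RARα at 16.7 under control and 68.8 under RA, and weak RARβ and RXRα peaks only under RA (17.6 and 16.0).

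Nr1d2, which encodes REV-ERBβ, had 1 strong region, over its start (chr14:18237895-18239899). RARα scores were 387.60 and 439.86, at percentiles of 92.7 and 94.7. RARβ scores were 302.57 and 415.97, at 96.7 and 98.0. RXRα scores were 426.83 and 408.84, at 87.2 and 85.2. The lowest of these 6 percentiles was 85.2. The RXRα value under RA came from a peak 0.719 kb downstream, and that over the start itself was at 50.9. RXRα alone had further regions in the gene, at 2.17 kb (74.4 and 32.6), at 4.32 kb (6.62 and 10.2) and, under control only, at 12.8 kb (25.2). A fall as large as that at 2.17 kb was seen in 2.52% of RXRα regions called under both diets. Outside the gene, the highest RARα peaks of the window, at 99.4 and 96.9, and the highest RXRα peak under RA, at 89.8, lay 32.0 kb upstream at the start of Nkiras1. Over the 6 lists, the best-peak percentiles of Nr1d1 and Nr1d2 were the most alike of any pair of clock genes, with a Euclidean distance of 7.91 points.

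Dbp, the output gene, had 1 region over its start and its span in 4 lists (chr7:45703611-45708770), and no RARα midpoint lay within 10 kb under either diet. At the start itself, RXRα was at 48.9 under control and only 0.460 under RA, with a score of 50.55. Its higher peaks, at 75.9 and 68.3, lay 2.49 and 2.44 kb downstream. RARβ had separate peaks at the start (66.5) and 2.54 kb downstream (69.3) under control, and under RA 1 peak of 4889 bp over both positions (69.4). RXRα had a further peak at 7.03 kb in the control list only (35.7), nearest to Sphk2. The RARα peak closest to Dbp was 12.8 kb downstream (chr7:45717561-45718540), at 79.4 under control and 92.2 under RA, where all 6 lists had a peak and where RARβ had its highest peaks of the window (70.9 and 75.4). The start of Rpl18 lay 21 bp from the centre of that region, and 9 other protein-coding genes had a start in the Dbp window.

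Peaks were unevenly spread over the clock genes. Per 100 kb of window, Nr1d1 had 9.31 and 11.2 RARα peaks under control and RA, 7.45 and 8.38 RARβ peaks, and 13.0 and 12.1 RXRα peaks. The medians over all genes were 2.66 and 3.07, 0.957 and 1.92, and 3.77 and 3.69. Nr1d1, Per1, Per2 and Cry2 were above the upper quartile of all genes in every list. Clock and Arntl were below the median in every list, with 0.511 RARβ peaks per 100 kb at Clock and 0.849 at Arntl under the control diet. Arntl therefore combined few peaks per length with 1 strong region at its start. Of the 387 peaks, 185 (47.8%) had the clock gene itself as the nearest start, from 33 of 33 at Arntl to 7 of 20 at Dbp.

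**Figure D3:**
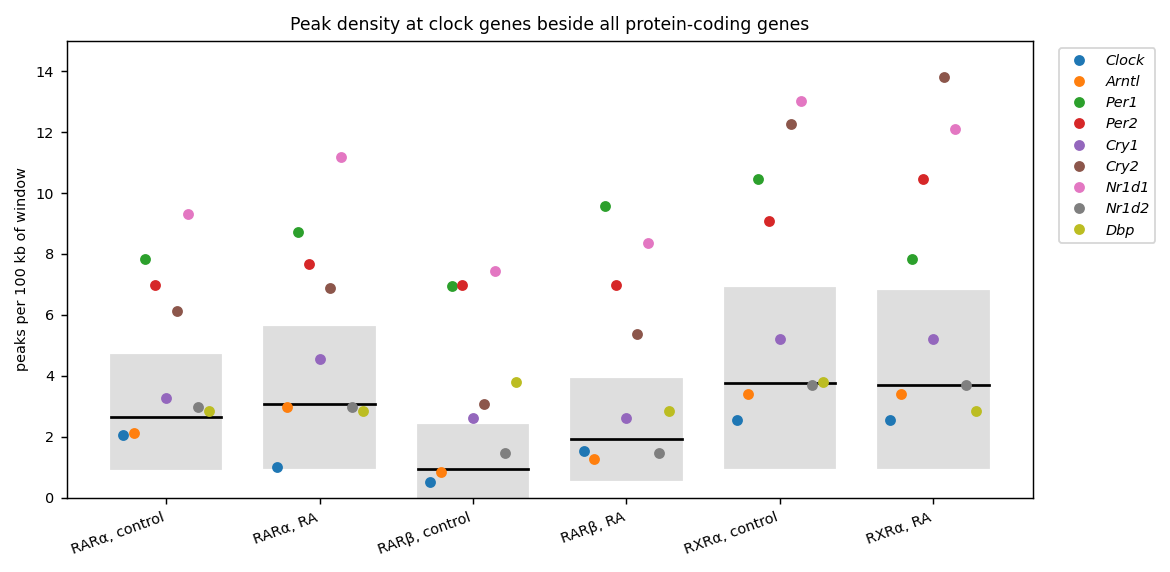
Peaks per 100 kb of window at each clock gene (points, 1 colour per gene) in the 6 lists, with the median (line) and the interquartile range (grey box) over all protein-coding genes. Nr1d1, Per1, Per2 and Cry2 lie above the box in every list.

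When peaks of all lists were merged, the 9 windows held 120 regions. Of these, 19 (15.8%) were called in all 6 lists and 34 (28.3%) in 1 list, against 9.75% and 29.4% of 87802 regions in the genome. Within 10 kb of a start the share in all 6 was 8 of 26 (30.8%), against 20.4% of 29321 regions within 10 kb of any protein-coding start. Of the 19 regions, 10 had another gene as the nearest start. They lay near Tmem107 (Per1 window), Ilkap, Hes6 and Traf3ip1 (Per2), Mterf2 (Cry1), Pex16 (Cry2), Casc3 (Nr1d1), Nkiras1 (Nr1d2) and Rpl18 (Dbp). By receptor, 38 regions had all 3, 38 had RXRα only, 16 RARα only and 5 RARβ only. RXRα only was most frequent at Cry2, with 12 of 22 regions, and was absent at Per1, with 0 of 14. The RXRα lists were the longest, and the same split over all regions of the genome was not computed. The counts by receptor therefore describe these windows only.

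**Figure D4:**
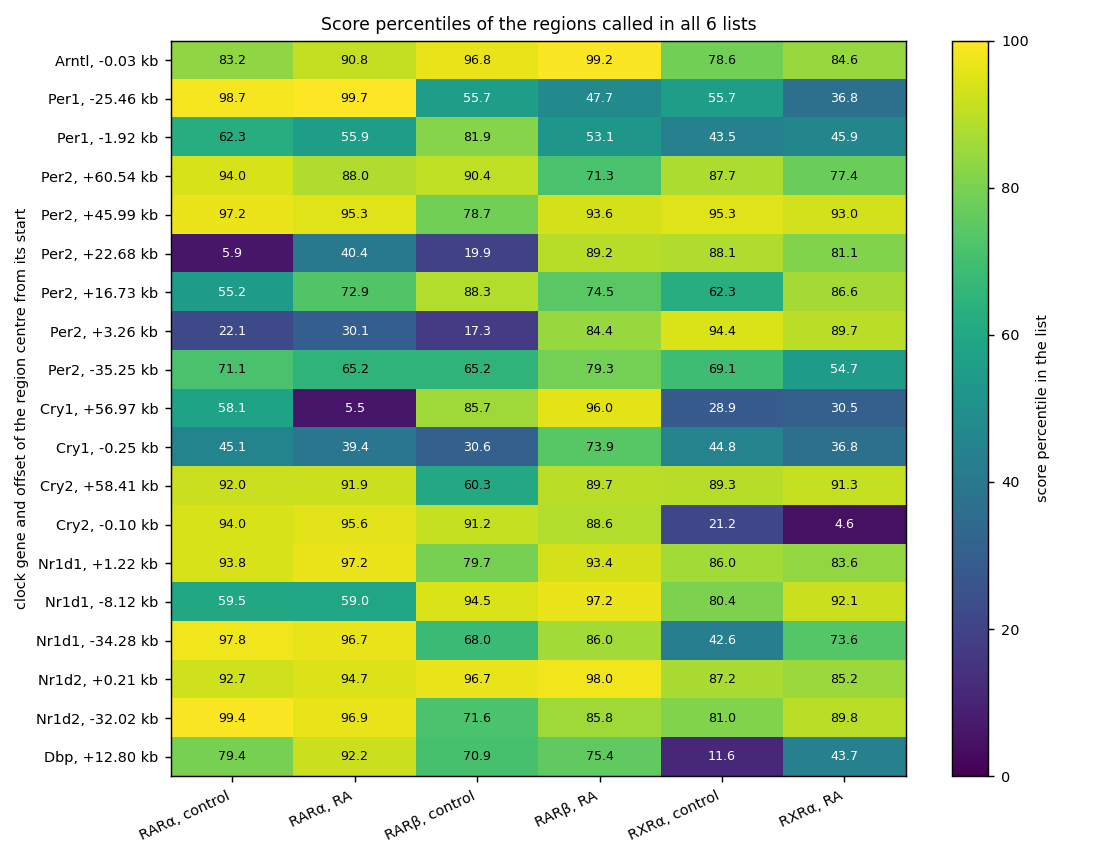
Score percentile in each list (columns) of the 19 regions called in all 6 lists (rows, with the clock gene and the offset of the region centre from its start in kb). The lowest value of the Nr1d2 start is 85.2, the Cry2 start falls to 21.2 and 4.63 for RXRα, and 2 Per2 rows go from 19.9 and 17.3 for RARβ control to 89.2 and 84.4 for RARβ RA.

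The diets were compared within each receptor. Of the regions of a receptor in the clock gene windows, RARα had 51 under both diets, 5 under control only and 11 under RA only. RARβ had 33, 6 and 18, and RXRα 61, 17 and 17. The share under both diets was thus 76.1% (RARα), 57.9% (RARβ) and 64.2% (RXRα), against 61.7%, 35.8% and 66.6% over the whole lists. The percentile was higher under RA in 30 of 51, 24 of 33 and 31 of 61 regions (58.8%, 72.7% and 50.8%). Over all regions called under both diets this was 62.4%, 64.4% and 50.3%. Percentiles depend on list length, and both RAR lists were longer under RA. No region was called in 2 or more lists of 1 diet and in no list of the other (0 of 120). The regions called under a single diet were therefore those called in a single list. The same count over all regions of the genome is not given, so it describes these windows only.

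Counted by peak with an overlap of at least 25% of each width, 51 of 58 RARα control peaks overlapped an RA peak (87.9%, exact Clopper-Pearson 95% interval 76.7% to 95.01%), against 84.2% of the whole list. In reverse, 54 of 65 RARα peaks under RA overlapped a control peak (83.1%, 71.7% to 91.2%), against 68.4%. For RARβ, 31 of 43 control peaks were shared (72.1%, 56.3% to 84.7%), against 75.8%, and 31 of 52 peaks under RA (59.6%, 45.1% to 73.0%), against 38.2%. For RXRα, the shares were 65 of 85 (76.5%, 66.0% to 85.0%) and 66 of 84 (78.6%, 68.3% to 86.8%), against 78.7% and 80.3%. The intervals cover counting error only. They treat neighbouring peaks as independent, so they are no test of the clock genes against the whole lists. The whole lists were also not matched for distance to starts or for score. The clock gene share was above the whole-list share for RARα under both diets and for RARβ under RA. It was below the whole-list share in the other lists.

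**Figure D5:**
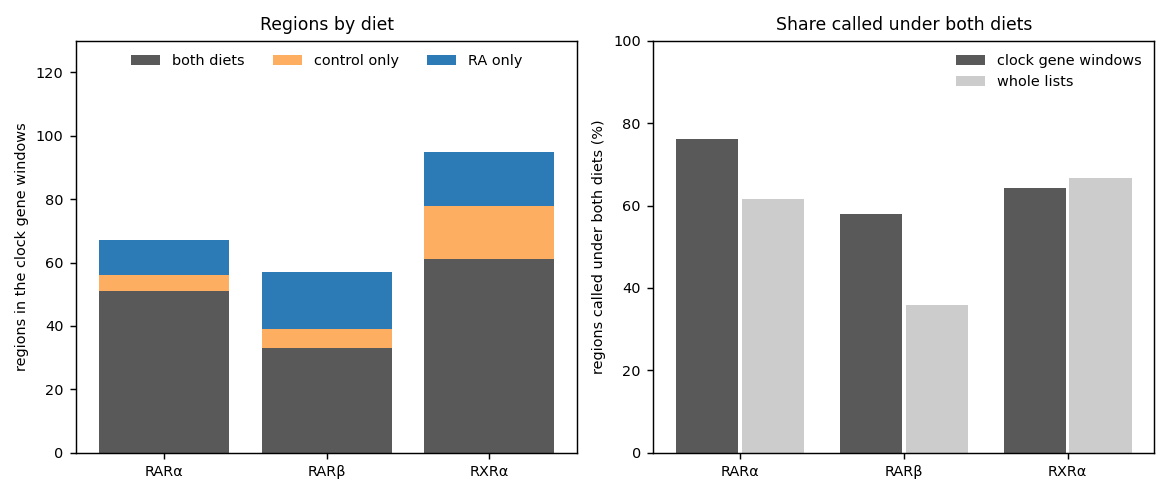
Left, number of regions in the clock gene windows called for each receptor under both diets, under control only or under RA only. Right, percentage of regions called under both diets in the clock gene windows (dark) and over the whole lists (light), where the clock gene bars are higher for RARα (76.1% against 61.7%) and RARβ (57.9% against 35.8%) and lower for RXRα (64.2% against 66.6%).

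Peaks of the RARs were also compared with those of RXRα under the same diet. Under control, 34 of 43 RARβ peaks (79.1%, 64.0% to 90.0%) and 37 of 58 RARα peaks (63.8%, 50.1% to 76.0%) overlapped an RXRα peak. Under RA, these were 43 of 52 (82.7%, 69.7% to 91.8%) and 36 of 65 (55.4%, 42.5% to 67.7%). The intervals again cover counting error only, so they are no test of RARβ against RARα. Over the whole lists the shares were 77.8% and 61.1% under control, and 89.9% and 61.7% under RA, so the same order held in the genome. Of the RXRα peaks, 33 of 85 (38.8%, 28.4% to 50.01%) overlapped an RARβ peak under control and 48 of 84 (57.1%, 45.9% to 67.9%) under RA, against 19.0% and 44.8% of the whole lists. These shares depended on list length. With lists of equal length, 34.9% of RARβ and 30.8% of RARα peaks overlapped an RXRα peak under control, and 50% and 30.8% under RA. Of the RXRα peaks, 88.2% and 84.2% then overlapped an RARβ peak, and these rest on the small equal-length counts given at the end. Whole-list shares at equal length are not given, so these values cannot be set beside the genome.

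The wider clock pathway was described by 22 further genes. Of these, 19 and 20 had an RARα peak within 10 kb under control and RA, 19 and 19 an RARβ peak, and 21 and 20 an RXRα peak, and 17 (77.3%) had a peak in all 6 lists. As shares, these were 86.4% and 90.9%, 86.4% and 86.4%, and 95.5% and 90.9%, against 62.3% and 63.7%, 44.5% and 55.2%, and 61.8% and 62.3% of all genes, and 38.8% for all 6 lists. Rorb, a ROR receptor gene of the nervous system, had none in any list, and Rora only a weak RXRα peak under control (24.6). The highest percentiles were 98.9 at Bhlhe40, a repressor of the E-box, for RXRα under RA, and 98.3 at both Noct, a rhythmic phosphatase, and Ciart, a repressor of CLOCK and ARNTL, for RARα under RA. Tef, a relative of Dbp, had percentiles between 86.2 and 95.8 in the 6 lists, where Dbp had no RARα peak.

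Of genes outside the clock, those with the most similar best-peak percentiles over the 6 lists were found by Euclidean distance. They were Naa35 for Nr1d2 (2.29 points), Jup for Nr1d1 (3.57), Rps3a1 for Arntl (4.14), Rbm4 for Per2 (6.88), Cavin1 for Clock (6.89), Rc3h2 and, at the same distance, Zbtb6 for Cry2 (9.99), Arrdc1 for Per1 (10.9) and Synpo for Cry1 (11.7). For Dbp the distance to Car11 was 0, since this neighbour lies within 10 kb of the same peaks. Of 6 genes with high expression in liver (Alb among them), 6 had an RXRα peak within 10 kb under each diet, RARα was at 2 and 4 and RARβ at 2 and 5, beside the shares of all genes just given. Peak lists do not measure expression, so the tissue label could not be checked from them.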

How the data were processed

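The data were 6 ChIP-seq peak lists of mouse liver, 1 per receptor and diet. Per the labels and methods, the authors used Bowtie 0.12.7 to align 35 bp reads to mm10 and MACS 1.4.1 for peak calling, against an input library that was not analysed here; CASAVA 1.4 is named in the processing notes. The deposited value is the caller's own peak score, which for this caller is a scaled log10 of the p-value, as called in 1 library and not normalised between libraries. No list held a score under 50. Between 56 and 169 peaks per list lay past chromosome ends of NCBIM37, so the lists are on GRCm38.

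Gene spans came from RefSeq (GRCm38.p6), and starts and strand from its promoter table for 17491 of 21532 protein-coding genes. For the other 4041 genes, Per2 among them, the strand came from GENCODE M1 and the start was the 5′ end of the span. For Arntl, the annotated starts lay 28994 and 29040 bp inside the outermost end of the span, and for Per1 3841 and 5044 bp. Offsets were taken to the nearest start, negative upstream. Exons and introns were not analysed here. Regions were peaks of all lists merged where they overlapped, and a region took the highest score of each list. Sharing required an overlap of at least 25% of each peak. Computation used Python 3.11.15, pandas 2.3.3 and scipy 1.17.1, with overlaps checked against bedtools 2.31.1 on simulated data. With 1 library per group there was no test, and intervals are exact binomial intervals of 95%.

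The 9 genes and the other lists were chosen with earlier results of these data known. Named were the 9 genes, their highest peak per list, every region within 10 kb of a start, the regions in all 6 lists, the gene most alike over the 6 lists, and of the 22 other clock genes those without a peak and those with the highest percentile. Alternatives were a score of at least 100, lists of equal length, a flank of 10 kb, any overlap with the window, peaks nearest to the clock gene, and overlaps of 1 bp or 50%. The outermost start was added after the data were seen.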

Additional observations from a re-analysis of the deposited data

Results flagged for a closer look

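The number of peaks in the 50 kb window of Per1 moved in opposite directions between receptors. From control to RA it went from 9 to 10 for RARα (a difference of 1), from 8 to 11 for RARβ (3) and from 12 to 9 for RXRα (-3). For RXRα, only the region 10.5 kb from the start lost its call under RA. The other missing peaks lay in regions still called for RXRα. The whole RARβ list also grew, from 14968 to 29467 peaks, and the RARα list from 35521 to 44296. The differences were not tested, since each count is of 1 library. Of the 59 Per1 peaks, 14 had Per1 as the nearest start.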

How the results depend on the processing

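No paired analysis was possible because each receptor and diet has 1 library, and for the same reason no replicate could be left out. Read depth per library and the spread between animals are unknown, and both limit every comparison of counts between lists. Of 144 recomputed values, 95 stayed within the stated limits (1.5 times a count, or the interval of a share) and 49 moved. All values with any overlap of the window or with an overlap of 1 bp stayed within them, and in the others the cause was not tested unless the setting itself removes peaks. In the order RARα, RARβ and RXRα, each under control and then RA, the moved values were as follows. A flank of 10 kb left 30, 31, 24, 32, 54 and 50 peaks, and peaks nearest to the clock gene numbered 25, 29, 19, 24, 45 and 43. A score of at least 100 left 22 and 29 RARβ and 47 and 46 RXRα peaks, RXRα within 1 kb of 5 genes under RA, and 67.4% of RARα peaks under RA shared with control. Lists of equal length left 26 and 26 RARα, 30 RARβ (RA) and 17 and 19 RXRα peaks. They left 5 genes bound within 10 kb by RARα and 5 by RXRα under RA, 2 and 3 genes with RXRα within 1 kb, and 13 other clock genes with RXRα under control. Shares between diets under lists of equal length were 94.1% of RXRα control and 83.3% of RARβ RA peaks. Under control, 73.1% of RARα peaks were then shared with RARβ and 30.8% with RXRα, 46.5% of RARβ peaks with RARα and 34.9% with RXRα, and 88.2% of RXRα peaks with RARβ. Under RA, these were 30.8% of RARα with RXRα, 40.0% of RARβ with RARα and 50% with RXRα, and 84.2% of RXRα with RARβ. With an overlap of 50%, shares between diets were 48.8% of RARβ control, 40.4% of RARβ RA and 67.9% of RXRα RA peaks. Between receptors, under control, they were 31.0% of RARα with RARβ, 41.9% of RARβ with RARα, 55.8% of RARβ with RXRα and 28.2% of RXRα with RARβ. Under RA, they were 65.4% of RARβ with RXRα and 40.5% of RXRα with RARβ. With the outermost start, chosen after seeing the data, RARβ was within 1 kb of 4 genes under RA. Of 270 values for single clock genes, 130 stayed within the limits and 140 moved.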
